A study of Homo sapiens with 13 samples.

Results

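The genes described here are 34 members of the pathways that make cholesterol and fatty acids, followed across 13 RNA sequencing libraries in 9 groups. The members were taken by symbol from a fixed list, and all 34 were found in both deposited count tables, out of 60639 gene identifiers. They comprise 7 genes of the mevalonate pathway, 11 genes of the steps after it that lead to cholesterol, 5 regulators, 3 sterol transport genes and 8 genes of fatty acid synthesis or related steps. The cells were H9 human embryonic stem cells, an established line, with a stable NEUROG2 gene that doxycycline switches on. NEUROG2 is a proneural transcription factor, and the labels describe the cells it yields as excitatory neurons that no longer divide.

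The FGF2 set held 8 libraries in 4 groups of 2. Its groups were FGF2 day 12 (doxycycline for 6 days, then FGF2 without doxycycline for 6 days), control day 12 (doxycycline for 6 days, then 6 days without either), FGF2 day 6 (doxycycline and FGF2 together for 6 days) and control day 6 (doxycycline alone for 6 days). All 8 cultures of the FGF2 set therefore received doxycycline. The doxycycline set held 1 library each of doxycycline day 5, no doxycycline day 5, doxycycline day 11, no doxycycline day 11 and day 0. Doxycycline was kept throughout in its treated cultures, and none of the 5 received FGF2. The labelled doses were 20 µg/ml of FGF2 and 1 µg/ml of doxycycline. E8 stem cell medium was used for the first 2 days and 3N medium thereafter, so that time and medium change together against day 0. Each RNA came from 1 well of a plate. Replicates 1 and 2 of the FGF2 set are those that the titles name hES-N2G1 and hES-N2G2, and the labels do not say whether these are wells, clones or lines, so p-values measure the spread between these samples, which may be technical. The descriptions of the day-12 controls state 6 days of growth, while their titles and listed periods give 12, and fields differ on whether late FGF2 began on day 6 or day 7. Each set was a sequencing run of its own and was scaled on its own. The titles name the samples of the doxycycline set hES-N1, and what this difference in name marks was not settled.

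The FGF2 libraries held 22802501 to 30014661 counts, and those of the doxycycline set 28443657 to 47159475. Levels below are CPM, counts scaled to 1000000 reads after TMM scaling of each set. Defining markers fitted the labels on day 5: STMN2, a neuronal microtubule regulator, was at 4019 CPM in the doxycycline day-5 library and 2.00 CPM in the no-doxycycline one, and POU5F1, a stem cell factor, at 5.03 against 654 CPM. The no-doxycycline day-11 library differed from day 0. In it POU5F1 was at 38.9 against 1000 CPM, and PAX6, a neural progenitor factor, at 101 against 1.32 CPM. Among genes counted, 8 of 10 pluripotency genes were at least 2-fold lower (8.41% of all genes). Of neural progenitor genes, 5 of 8 were at least 2-fold higher (5.77%). The day-5 and day-11 ratios below thus have unlike comparators. SOX10, an oligodendrocyte lineage factor, was at 0 in all 13 libraries. GFAP, an astrocyte marker, was at most 0.112 CPM in the FGF2 set and at 2.77 CPM in the no-doxycycline day-5 library. MBP, a marker of the same list, was at 15.9 to 33.1 CPM in the FGF2 set and 46.2 CPM in the doxycycline day-11 library. Of the 15 astroglial and oligodendroglial genes listed, 4 to 10 reached 1 CPM in each library, so these markers were not absent as a group. The FGF2 day-6 libraries stood apart, in that chi-square of their counts over its degrees of freedom was 21.2 between replicates, against 3.02 to 3.46 in the other groups. Over the 34 members their median absolute log2 difference between replicates was 0.16, against 0.05 to 0.07. The no-doxycycline day-5 library held 12.9% of its scaled counts in mitochondrial messenger RNAs, against 2.85% to 5.499% in the other 4 libraries of its set.

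Cholesterol is built from acetyl-CoA through mevalonate and squalene to lanosterol and then through a chain of demethylations, reductions and isomerisations. The pathway is governed by sterol regulatory element-binding proteins, membrane-bound transcription factors encoded by SREBF1 and SREBF2. When the endoplasmic reticulum holds little sterol, the escort protein SCAP carries them to the Golgi apparatus, where proteases free their active part. When sterol is plentiful, INSIG proteins hold SCAP back. The freed factors bind sterol regulatory elements, commonly next to sites for the factors NF-Y and Sp1. Neurons need membrane lipid as they extend processes, and in the brain cholesterol is made locally.

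Promoter sequences are shown for 5 members because they stand for the patterns of expression described below: SREBF2 for a regulator that was higher with doxycycline, as INSIG1 was too, HMGCS1 and LSS for the synthesis genes with large ratios, STARD4 for the member with the largest FGF2 change, and NPC2 for the member with the largest decrease with doxycycline. RefSeq windows (GRCh38.p14) were found for 30 of the 34 members; ACAT2, FASN, FDFT1 and SQLE had no entry. Each line gives the 250 bases before the annotated start, written 5′ to 3′ on the gene's strand. Capitals mark matches to TCACNCCAC, the core of a sterol regulatory element, or CCAAT, the NF-Y box, on either strand, so that the reverse-strand NF-Y box reads ATTGG. The SREBF2 window lies at chr22:41832855-41833104 on the plus strand. The other windows lie on the minus strand, at chr5:43313413-43313662 for HMGCS1, chr21:46228775-46229024 for LSS, chr5:111512536-111512785 for STARD4 and chr14:74493513-74493762 for NPC2.
SREBF2: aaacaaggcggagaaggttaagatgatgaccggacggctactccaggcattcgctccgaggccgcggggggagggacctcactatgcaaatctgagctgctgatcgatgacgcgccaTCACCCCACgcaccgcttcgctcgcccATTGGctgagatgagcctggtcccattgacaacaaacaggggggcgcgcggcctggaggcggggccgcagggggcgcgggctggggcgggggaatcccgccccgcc
HMGCS1: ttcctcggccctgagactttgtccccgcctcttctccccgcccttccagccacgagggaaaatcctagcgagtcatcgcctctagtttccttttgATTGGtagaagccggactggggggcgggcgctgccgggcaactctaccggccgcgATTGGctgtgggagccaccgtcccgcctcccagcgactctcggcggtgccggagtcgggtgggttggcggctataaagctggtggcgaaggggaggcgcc
LSS: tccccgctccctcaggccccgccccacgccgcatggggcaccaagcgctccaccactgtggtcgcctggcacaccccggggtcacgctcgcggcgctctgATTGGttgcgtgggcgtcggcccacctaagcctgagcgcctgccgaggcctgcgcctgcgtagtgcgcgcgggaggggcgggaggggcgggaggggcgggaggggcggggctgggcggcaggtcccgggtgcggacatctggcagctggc
STARD4: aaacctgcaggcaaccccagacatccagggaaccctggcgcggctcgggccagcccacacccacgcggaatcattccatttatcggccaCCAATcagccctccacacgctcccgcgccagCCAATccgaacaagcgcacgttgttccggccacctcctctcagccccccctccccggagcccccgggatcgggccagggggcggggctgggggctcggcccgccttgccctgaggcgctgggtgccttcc
NPC2: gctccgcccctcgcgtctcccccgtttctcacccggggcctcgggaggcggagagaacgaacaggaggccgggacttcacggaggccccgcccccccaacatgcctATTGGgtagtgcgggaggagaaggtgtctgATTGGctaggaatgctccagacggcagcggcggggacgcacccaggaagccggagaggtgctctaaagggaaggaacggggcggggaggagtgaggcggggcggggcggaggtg

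The element core TCACNCCAC was found in 1 of the 30 members with an entry, SREBF2, where its first base lay at position -133 from the start and an NF-Y box began at -106. The core occurred in 3.33% of the members, against 1.39% of all 27305 genes of the table. The NF-Y box occurred in 21 of 30 members (70.0%), against 39.7% of all genes and 43.0% of the genes tested in the FGF2 set. MVK and NSDHL each held 5 NF-Y matches, and so did IDI1 over 2 of its windows, some of them from both strands and overlapping by a few bases. The GC box GGGCGG, the letters bound by Sp1, occurred in 29 of 30 members (96.7%), against 48.3% of all genes and 75.3% of the genes tested. These figures count matches on both strands in windows of 250 bases before and 50 after the start, with a gene counted once over its windows. NPC2, which ran opposite to most members, also held 2 NF-Y boxes, as did STARD4 and HMGCS1 in the windows shown. A match is a run of letters and not a shown binding site. Only exact letters in these windows were counted, so a missing match does not show that a member lacks an element.

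With doxycycline, most genes of sterol synthesis stood at several times their level without it. On day 5, 24 of the 34 members were at least 2-fold higher and 1, NPC2, was at least 2-fold lower. The background, over 12895 genes that reached 10 CPM in one or both libraries, was 29.1% at least 2-fold higher and 21.1% at least 2-fold lower. The median log2 ratio was 1.37 over the members, against 0.23 over all genes counted, and 10 members were at least 4-fold higher (background 12.6%). The CPM of the 34 members summed to 14367 in the doxycycline day-5 library and 5454 in the no-doxycycline day-5 library. These groups have 1 library each, so no test was made. Ratios are given as log2 of CPM + 1 in both libraries, which understates the change of low genes, and the fold intervals below are exact binomial 95% intervals that cover counting error only.

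All 7 mevalonate genes were at least 2-fold higher on day 5, with log2 ratios of 1.41 to 3.75. ACAT2, which joins acetyl-CoA units at the entry to the pathway, was at 513 CPM in the doxycycline library and 37.1 CPM in the no-doxycycline library, a 13.8-fold ratio (13.04 to 14.7). HMGCS1, the cytosolic HMG-CoA synthase that makes the precursor of mevalonate, was at 1377 against 121 CPM, an 11.4-fold ratio (11.0 to 11.7). These were the largest log2 ratios of the 34 members on that day. MVK, mevalonate kinase, was at 90.8 against 12.2 CPM, and MVD, which decarboxylates the diphosphate product, at 333 against 46.5 CPM. IDI1, the isomerase that gives the reactive isoprene unit, was at 327 against 44.8 CPM. PMVK, phosphomevalonate kinase, and FDPS, farnesyl diphosphate synthase, had smaller log2 ratios of 1.77 and 1.41. Other genes, the largest overlap being with an antisense gene, cover 52.3% of the exon bases of ACAT2. The library kit did not mark strand, so the ACAT2 counts are uncertain. FDPS has 8 pseudogenes by name in the annotation and 18.6% of its exon bases overlapped by other genes, and the overlap was 14.95% for HMGCS1 and 14.8% for IDI1.

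Of the 11 genes after farnesyl diphosphate, 9 were at least 2-fold higher on day 5. LSS, lanosterol synthase, which closes the sterol rings, was at 813 CPM with doxycycline and 85.1 CPM without, a 9.56-fold ratio (9.19 to 9.94). CYP51A1, the lanosterol demethylase, was at 23.0 against 1.84 CPM, from 953 and 59 counts, a 12.5-fold ratio (9.62 to 16.6). CYP51A1 has 83.2% of its exon bases overlapped by other genes, the largest overlap being with a gene on the same strand. It also has 3 pseudogenes, so its low level and its ratio are uncertain. TM7SF2, a sterol reductase, had a log2 ratio of 2.25, MSMO1, which oxidises sterol methyl groups, 1.84, and NSDHL, the dehydrogenase that follows it, 1.81. The enzymes that make squalene and its epoxide had smaller ratios than LSS: FDFT1, squalene synthase, was at 704 against 278 CPM and SQLE, squalene epoxidase, at 417 against 191 CPM. The 2 genes under 2-fold were HSD17B7 (0.95) and EBP (0.75). Other genes of the late part of the pathway, SC5D (1.13) and DHCR7 (1.26), were above 2-fold.

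The regulators did not move as a block. On day 5 SREBF2 was at 989 CPM in the doxycycline library and 430 CPM in the no-doxycycline library, a 2.30-fold ratio (2.26 to 2.35). SREBF1 was at 111 against 189 CPM, a log2 ratio of -0.76. The no-doxycycline day-5 library held more SREBF1 than day 0 (65.3 CPM), and against day 0 the SREBF1 log2 ratio with doxycycline was 0.76. SCAP was at 122 against 154 CPM. INSIG1, an SREBP target as well as a brake on SCAP, was at 260 against 74.7 CPM, whereas the log2 ratio of INSIG2, its homologue, was 0.37. The transport genes split further. STARD4, a soluble carrier that moves cholesterol between membranes, was at 307 against 75.1 CPM. NPC2, which takes cholesterol out of lysosomes, was at 8.36 CPM with doxycycline and 117 CPM without, a log2 ratio of -3.66, while its membrane partner NPC1 was at 60.9 against 66.3 CPM.

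Among the fatty acid genes, 5 of 8 were at least 2-fold higher on day 5, with a median log2 ratio of 1.16. ACLY, which makes cytosolic acetyl-CoA from citrate, had the largest ratio, at 1091 against 243 CPM. FASN, fatty acid synthase, was at 1165 against 378 CPM, and LPIN1, a phosphatidate phosphatase of glycerolipid synthesis, at 94.6 against 34.3 CPM. FADS2, a desaturase of polyunsaturated fatty acids, was at 1041 against 423 CPM. SCD, the desaturase that makes monounsaturated fatty acids, was at 2200 against 1424 CPM, a log2 ratio of 0.63. Per kb of exon, SCD was nevertheless the highest member in 7 of the 9 groups, at 410 CPM per kb in the doxycycline day-5 library, and HMGCS1 was the highest in both day-12 groups.

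**Figure D1:**
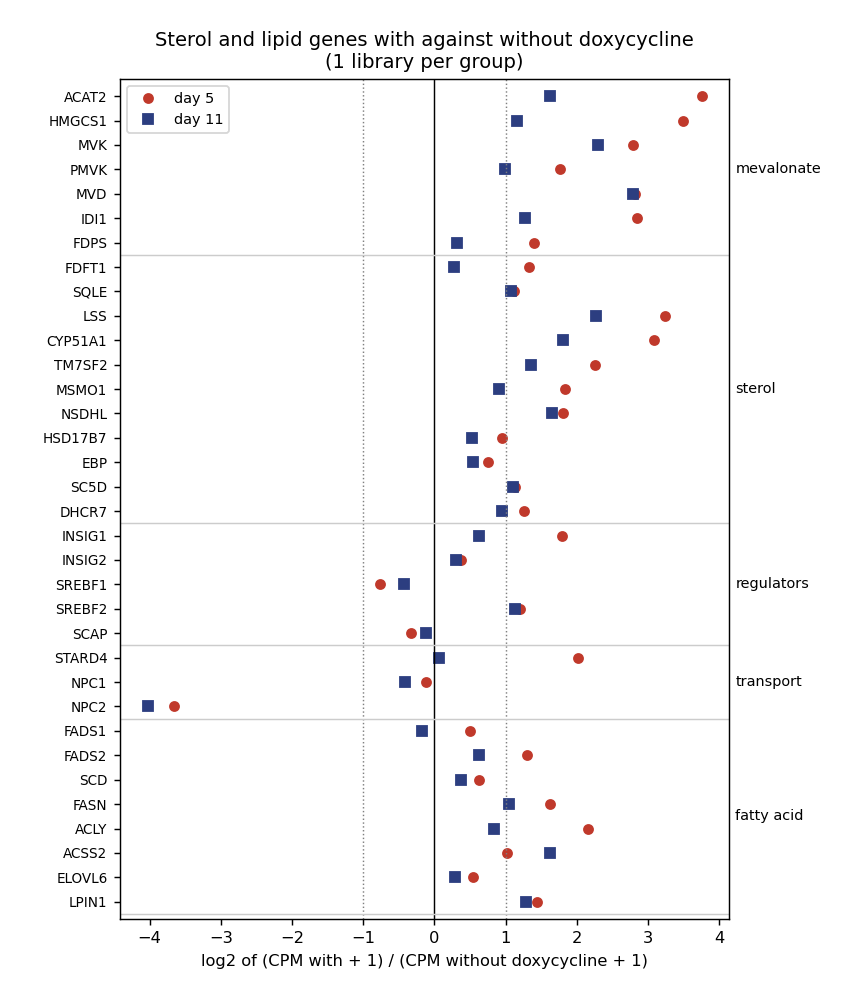
Log2 ratio of CPM + 1 with over without doxycycline for the 34 members, grouped by role, on day 5 (circles) and day 11 (squares), 1 library per group; dotted lines mark 2-fold. On day 5 24 members lie right of the upper line and NPC2 lies far left on both days.

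On day 11, 15 members were at least 2-fold higher and 1, again NPC2, was lower (background 24.6% higher and 21.2% lower of 12655 genes). With library totals in place of TMM scaling, 8 members were at least 2-fold higher (background 18.8%). The median log2 ratio over all genes counted was then -0.18, and over the members 0.63. The median log2 ratio was 0.93 over the members, against 0.16 over all genes counted, and 3 members, MVD, MVK and LSS, were at least 4-fold higher (background 11.5%). MVD was at 315 CPM with doxycycline and 44.5 CPM without, MVK at 88.9 against 17.2 CPM and LSS at 564 against 116 CPM. CYP51A1 was at 19.8 against 4.94 CPM, NSDHL at 74.2 against 22.9 CPM and ACAT2 at 351 against 113 CPM. ACSS2, which makes acetyl-CoA from acetate, was at 78.3 against 24.8 CPM and had a larger log2 ratio on day 11 (1.62) than on day 5 (1.02). SREBF2 was at 940 against 429 CPM, and INSIG1 was at 169 against 110 CPM. STARD4 was at 112 against 107 CPM, a log2 ratio of 0.06, after 2.02 on day 5. NPC2 was at 4.33 against 85.8 CPM. SREBF1 (43.8 against 59.5 CPM), SCAP (115 against 125 CPM) and SCD (1315 against 1014 CPM) stayed within 2-fold.

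Values of other gene lists moved with these ratios. On day 5 all 15 pan-neuronal genes were at least 2-fold higher and all 12 proliferation genes at least 2-fold lower, and the mitochondrial messenger share was 3.90% with doxycycline and 12.9% without. On day 11 that share was 3.88% with doxycycline and 2.85% without. In bulk samples fewer cells of a type and less RNA per cell cannot be told apart. Set against the day-0 library instead, an alternative chosen after the mitochondrial share was seen, 21 members were at least 2-fold higher and 1 lower on day 5 (background 26.0% and 21.7%), and 16 higher and 1 lower on day 11 (background 26.3% and 25.9%). ACAT2 had a day-5 log2 ratio of 2.53 and HMGCS1 of 2.65 on that footing. The part of cell identity, cycling and mitochondrial content in the ratios was not tested.

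**Figure D2:**
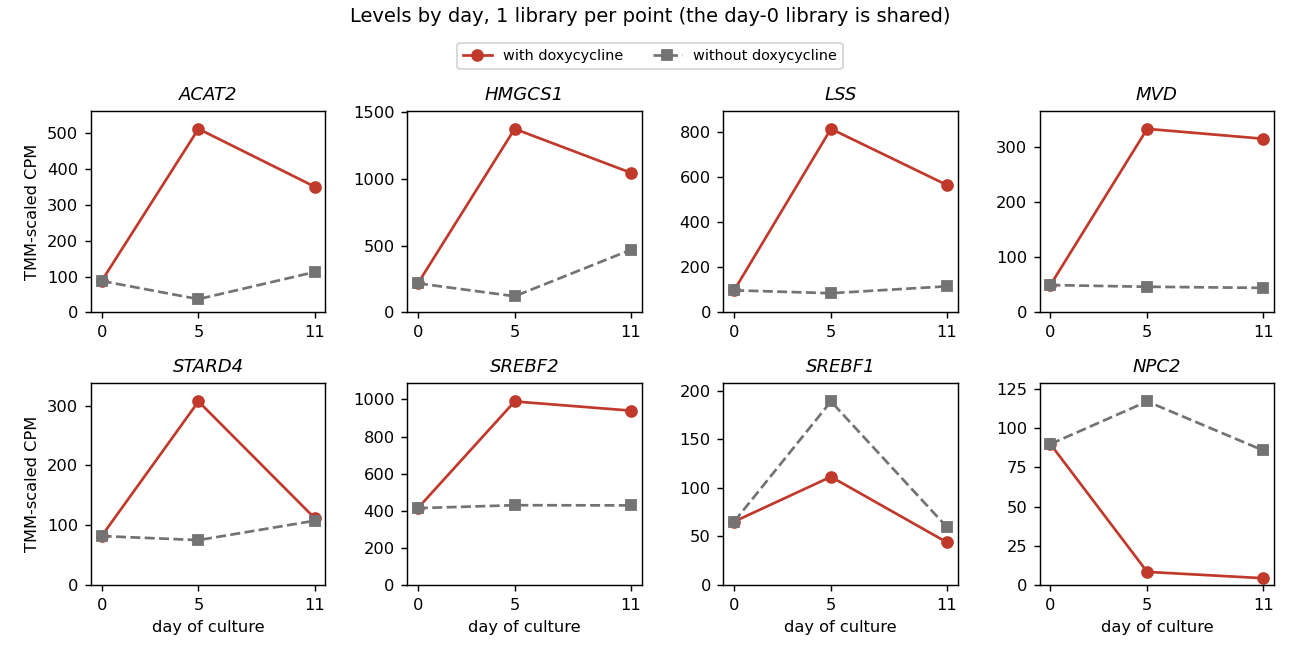
TMM-scaled CPM of 8 members on days 0, 5 and 11 with doxycycline (circles) and without (squares), 1 library per point, with the day-0 library common to both lines. With doxycycline STARD4 stood at 81.8, 307 and 112 CPM on days 0, 5 and 11, while MVD and SREBF2 stayed high.

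Without doxycycline few members differed 2-fold from day 0. Against day 0, the no-doxycycline day-5 library had 2 members at least 2-fold higher, SREBF1 (189 against 65.3 CPM) and ACSS2 (62.0 against 26.2 CPM), and 1 lower, ACAT2 (37.1 against 87.8 CPM). The background was 5.62% higher and 4.33% lower, and 33 of the 34 members reached 10 CPM. CYP51A1, the member below that level, was at 1.84 against 5.42 CPM. The no-doxycycline day-11 library had 1 member at least 2-fold higher, HMGCS1 (470 against 218 CPM), and 0 lower (background 5.77% and 8.41%). Summed member CPM was 5631 on day 0, 5454 on day 5 and 5682 on day 11 without doxycycline. On those days the 7 mevalonate genes summed to 538, 330 and 850 CPM. The 11 sterol genes summed to 1151, 1058 and 1189 CPM, and the 8 fatty acid genes to 2962, 2933 and 2642 CPM. HMGCS1 was at 218, 121 and 470 CPM and SREBF1 at 65.3, 189 and 59.5 CPM, so their day-5 and day-11 ratios have unlike levels without doxycycline beneath them. With doxycycline, day 11 stood below day 5 in 32 of 34 members, with a median log2 ratio of -0.50 against -0.07 over all genes counted. Only STARD4 (112 against 307 CPM) and SREBF1 (43.8 against 111 CPM) were at least 2-fold lower and 0 were 2-fold higher (background 4.44% and 3.49%).

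In the FGF2 set, FGF2 given after doxycycline was associated with slightly higher levels of most members on day 12. The test called 3 members higher and 0 lower at an adjusted p under 0.05: STARD4, ACSS2 and ACAT2. The edgeR quasi-likelihood test called 1.63% of 20142 genes higher and 0.536% lower. The median log2 change was 0.22 over the 34 members and 0.00 over all genes tested. The log2 change was above 0 in 32 members, against 50.0% of all genes. In all 34 members the libraries of the groups did not overlap, with 32 higher and 2 lower, against 27.5% higher and 25.2% lower among genes with a mean of at least 10 CPM. At an unadjusted p under 0.05 there were 24 members and 2151 genes. Summed member CPM was 11674 and 12059 in FGF2 day-12 libraries and 10456 and 10106 in control day-12 libraries.

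STARD4 was at 137 and 145 CPM in FGF2 day-12 libraries and 92.4 and 92.6 CPM in control day-12 libraries. Both FGF2 libraries lay above both controls, and the log2 change was 0.61 ± 0.08 (SE; edgeR quasi-likelihood test, adjusted p = 0.000607). ACSS2 was at 86.2 and 86.4 CPM with FGF2 and 63.4 and 62.0 CPM in controls. Its libraries did not overlap, and its log2 change was 0.46 ± 0.09 (edgeR adjusted p = 0.0083). ACAT2 was at 416 and 458 CPM with FGF2 and 332 and 336 CPM in controls, a log2 change of 0.39 ± 0.09 (edgeR adjusted p = 0.0386). STARD4 was called in every fit that left out 1 library. Leaving out any single control library or FGF2 day-12 library ended the ACAT2 call, with edgeR adjusted p between 0.0632 and 0.465, and leaving out any single day-12 library ended the ACSS2 call, with edgeR adjusted p between 0.09 and 0.155.

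Of the 31 members not called, 29 had log2 changes above 0 and 2, INSIG2 and SCAP, below 0. DHCR7, a late sterol reductase, was at 211 and 206 CPM with FGF2 and 174 and 167 CPM in controls (log2 change 0.29 ± 0.07, edgeR adjusted p = 0.0574). SCD was at 1586 and 1737 CPM with FGF2 and 1377 and 1337 CPM in controls (log2 change 0.29 ± 0.07, edgeR adjusted p = 0.0595). INSIG1 was at 185 and 199 CPM with FGF2 and 160 and 154 CPM in controls (log2 change 0.29 ± 0.08, edgeR adjusted p = 0.065). All of these libraries were separated by group. HMGCS1 was at 1555 and 1607 CPM against 1465 and 1316 CPM, a log2 change of 0.19 ± 0.07. The other mevalonate genes had log2 changes of 0.08 (MVK) to 0.27 (FDPS), and the 11 sterol genes of 0.12 (TM7SF2) to 0.37 (HSD17B7). SREBF1 was at 50.6 and 51.5 CPM against 43.8 and 41.9 CPM, a log2 change of 0.25 ± 0.08. The gene for the other factor, SREBF2, was at 996 and 1010 CPM against 981 and 983 CPM, a log2 change of 0.03 ± 0.07. SCAP was at 112 and 105 CPM against 113 and 113 CPM. INSIG2 was the member with the lowest log2 change, at 34.9 and 33.4 CPM with FGF2 and 40.7 and 38.2 CPM in controls (log2 change -0.21 ± 0.09, edgeR adjusted p = 0.432).

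**Figure D3:**
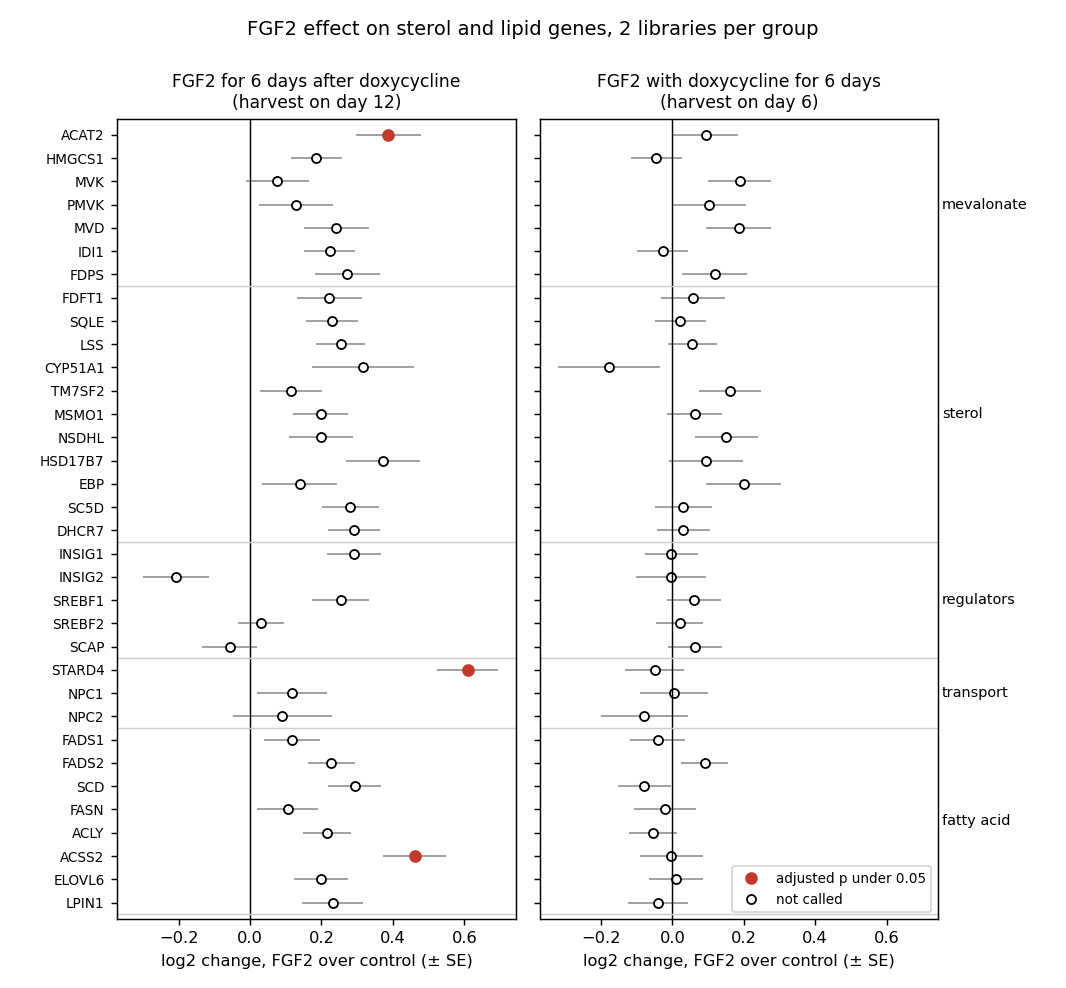
Log2 change ± SE, FGF2 over control, of the 34 members on day 12 (left) and day 6 (right), 2 libraries per group, with filled points for an edgeR adjusted p under 0.05. On day 12, 32 of the 34 points lie right of 0 and STARD4, ACSS2 and ACAT2 are filled; on day 6 no point is filled.

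The 8 libraries share 1 estimate of the spread, and the number of members called depended on the FGF2 day-6 pair in it. The SE of the STARD4 change was 0.05 without both FGF2 day-6 libraries and 0.08 with all 8. Without either one of the FGF2 day-6 libraries, and without both, 22 members were called higher and 0 lower, with a background of 3.6%, 3.65% and 3.72% of genes higher. These were the same 22 members in each of the 3 fits, and in the fit of the day-12 libraries alone (background 4.3%). With all 8 libraries kept, the DESeq2 Wald test called 5 of the 34 (background 1.59%), limma voom 7 (1.7%), the edgeR test with no filter on low counts 8 (1.21%) and with the replicate number as a block 8 (2.16%). Without both FGF2 day-6 libraries HMGCS1 had a log2 change of 0.18 (edgeR adjusted p = 0.0187), INSIG1 of 0.29 (0.000563), SCD of 0.29 (0.000107) and SREBF1 of 0.25 (0.0133). Of the 12 members outside those 22 calls, SREBF2, SCAP, INSIG2, NPC1 and NPC2 belong to the regulators and transport genes, CYP51A1, TM7SF2 and EBP to the sterol steps, MVK and PMVK to the mevalonate steps, and FASN and FADS1 to the fatty acid genes. In the authors' deposited table from DESeq2 19 members were higher and 0 lower (2.81% of 17705 genes higher), and in the authors' deposited table from limma 22 were higher and 0 lower (4.17% higher). Those 22 are the same members as in the fit without both FGF2 day-6 libraries.

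FGF2 given together with doxycycline from the start gave 0 called members on day 6, against 0.0% of all genes. The smallest edgeR adjusted p was 0.927, DESeq2 and limma voom also called 0, and at an unadjusted p under 0.05 there were 1 member (MVK) and 658 genes. The median log2 change was 0.03 over the members and 0.01 over all genes, and 4 members lay wholly above and 1 wholly below control, against 15.4% and 10.3% of genes with a mean of at least 10 CPM. STARD4 was at 143 and 123 CPM in FGF2 day-6 libraries and 136 and 139 CPM in control day-6 libraries. ACSS2 was at 54.4 and 64.0 CPM with FGF2 and 59.5 and 59.1 CPM in controls, and ACAT2 at 359 and 432 CPM against 351 and 391 CPM. HMGCS1 (968 and 937 against 960 and 1005 CPM), SCD (1627 and 1442 against 1622 and 1619 CPM) and INSIG1 (232 and 247 against 235 and 245 CPM) overlapped between groups, as did SREBF1 (148 and 143 against 135 and 144 CPM) and SREBF2 (866 and 837 against 827 and 852 CPM). SCAP was at 84.97 and 84.6 CPM with FGF2 and 79.0 and 83.3 CPM in controls, without overlap. Without FGF2 day-6 replicate 1, 8 members were called higher and 1, SCD, lower (background 5.56% higher), and without replicate 2 there were 0.

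The difference between the late and the early effect was called for 1 member, STARD4, at a log2 difference of 0.66 ± 0.12 (edgeR adjusted p = 0.0122). Of all genes 0.645% were called higher and 0.0844% lower. That call ended when any single control library or FGF2 day-12 library was left out, with edgeR adjusted p between 0.0503 and 0.123. For ACSS2 the difference was 0.46 ± 0.12 (edgeR adjusted p = 0.169) and for ACAT2 0.29 ± 0.13 (edgeR adjusted p = 0.637). Without FGF2 day-6 replicate 1, and likewise without replicate 2, 8 members were called higher, with a background of 4.32% and 1.21% of genes, and STARD4, ACSS2 and SCD were called in both.

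**Figure D4:**
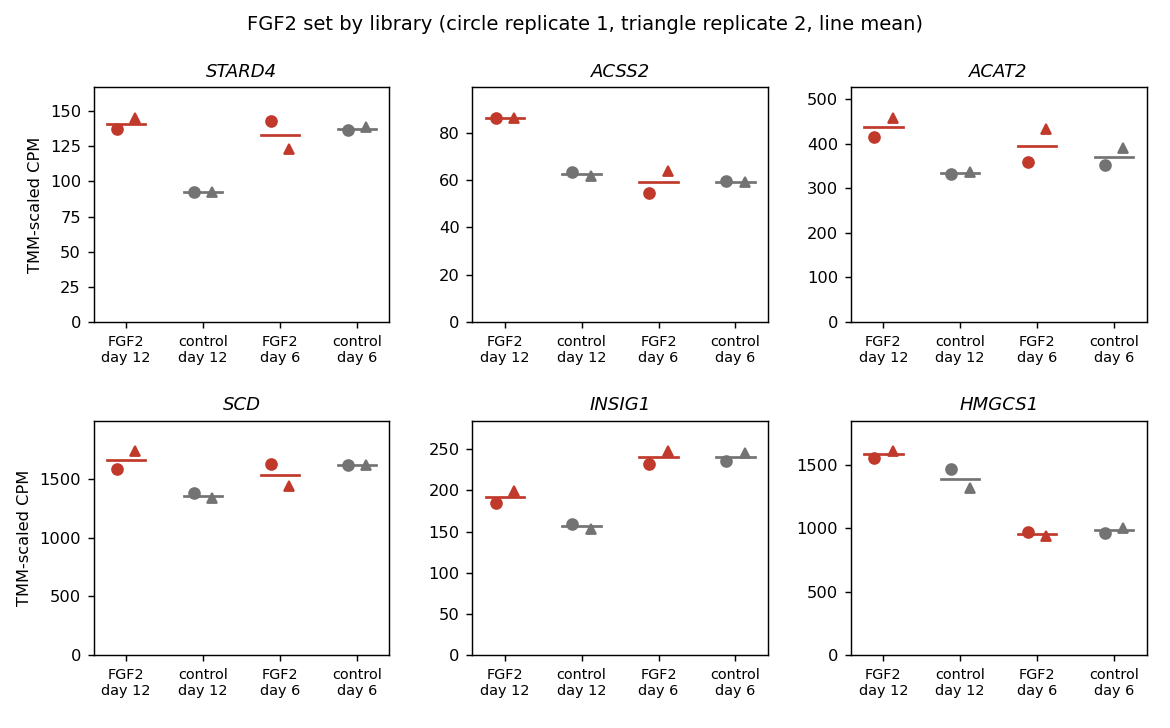
TMM-scaled CPM of 6 members in the 8 libraries of the FGF2 set, with a circle for replicate 1, a triangle for replicate 2 and a line for the group mean. STARD4 stood at 137 and 145 CPM in FGF2 day-12 libraries, above the control day-12 libraries at 92.4 and 92.6 CPM.

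Neighbouring pathways gave context for the late effect. In the same fit, 0 of 18 genes of fatty acid oxidation, 0 of 10 of the isoprenoid branch and 0 of 10 of SREBP processing were called, with median log2 changes of 0.00, 0.08 and 0.05. With 1.63% of all genes called higher, lists this small are not set apart by 0 calls. Median log2 changes were 0.12 over other fatty acid synthesis genes, 0.02 over sterol export and turnover genes and 0.03 over glycerolipid synthesis genes. The members had a median of 0.22. Among 17 other fatty acid synthesis genes tested, 1 rose: HSD17B12, a reductase of chain elongation, at 84.0 and 92.03 CPM with FGF2 and 63.9 and 64.9 CPM in controls (log2 change 0.45 ± 0.08, edgeR adjusted p = 0.00604). Among 13 genes of sterol export and turnover, 1 rose: ABCG1, a cholesterol exporter, at 21.2 and 20.3 CPM against 15.3 and 14.0 CPM (log2 change 0.50 ± 0.12, edgeR adjusted p = 0.0345). Of 20 glycerolipid synthesis genes, 1 rose: PCYT2, of phosphatidylethanolamine synthesis, with a log2 change of 0.38 ± 0.09 (edgeR adjusted p = 0.0492). Without both FGF2 day-6 libraries 0 genes of fatty acid oxidation, the isoprenoid branch and SREBP processing were called, while 4 other fatty acid synthesis genes (ELOVL5, ME1, HSD17B12 and HACD3), 1 export gene (ABCG1) and 2 glycerolipid genes (PTDSS1 and PCYT2) were higher and 0 were lower. Marker lists of other cell types and states were mixed. The 15 pan-neuronal genes summed to 31624 and 32432 CPM with FGF2 and 28945 and 28879 CPM in controls, and the neurofilament genes NEFM and NEFL were called higher. Without NEFM and NEFL the sums were 19552 and 20050 CPM with FGF2 and 20137 and 19832 CPM in controls, and the median log2 change of the 15 genes was 0.00, with 8 above 0 and 7 below. Without both FGF2 day-6 libraries 4 of the 15 (GAP43, NEFM, NEFL and RBFOX3) were called higher and 2 (ELAVL4 and DCX) lower. The 10 neural progenitor genes summed to 1019 and 1099 CPM with FGF2 and 858 and 922 CPM in controls, without overlap. NES and VIM made up most of these sums. NES was at 535 and 601 CPM against 457 and 496 CPM, and VIM at 424 and 437 CPM against 331 and 356 CPM. Among the 10 genes 0 were called higher and SOX1, a neural progenitor factor, was called lower, at 0.412 and 0.297 CPM against 1.87 and 2.56 CPM (log2 change -2.64 ± 0.45, edgeR adjusted p = 0.00377). Without both FGF2 day-6 libraries NES and VIM were called higher and SOX1 lower. SOX2, a factor of stem cells and neural progenitors that stood in the pluripotency list, was at 44.0 and 46.2 CPM against 67.4 and 65.6 CPM (log2 change -0.56 ± 0.08, edgeR adjusted p = 0.000759), while ZFP42 of that list was called higher at 1.09 and 1.22 CPM against 0.446 and 0.213 CPM. Mitochondrial messenger RNAs took 3.09% and 3.12% with FGF2 and 2.73% and 2.89% in controls. These 13 genes had a median log2 change of 0.12, and 0 were called. In the fit without both FGF2 day-6 libraries 4 of them (MT-ND2, MT-CO2, MT-ND4 and MT-CYB) were called higher and 0 lower. The 15 astroglial and oligodendroglial genes, of which 4 reached 1 CPM in each day-12 library, summed to 228 and 231 CPM against 281 and 274 CPM. SLC1A2, a glutamate transporter, made up most of that sum, at 176 and 180 CPM with FGF2 and 232 and 232 CPM in controls (edgeR adjusted p = 0.0807), and the other 14 summed to 52.7 and 51.7 CPM against 48.7 and 41.4 CPM. OLIG2, a factor of the oligodendrocyte and motor neuron lineages, was called higher, at 9.21 and 10.6 CPM with FGF2 and 6.81 and 5.80 CPM in controls (log2 change 0.65 ± 0.13, edgeR adjusted p = 0.0155). Without both FGF2 day-6 libraries OLIG2 was called higher and SLC1A2 lower, and in the pluripotency list LIN28A and ZFP42 higher and SOX2 lower. Whether these differences have a part in the change of the members was not tested.

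Between day 6 and day 12 NEUROG2 itself was lower in the control cultures after doxycycline ended, at 54.7 and 49.3 CPM on day 12 and 7708 and 7544 CPM on day 6, so time and withdrawal cannot be told apart. The edgeR quasi-likelihood test called 7 members higher and 16 lower on day 12, against 31.7% of all genes higher and 32.3% lower. The median log2 change was -0.19 over the members and 0.00 over all genes. The share lower (16 of 34) stood above the background and the share higher (7 of 34) below it, and leaving out single libraries moved these counts over 12 to 19 and 5 to 7. With library totals, TM7SF2, SC5D and ELOVL6 were no longer called lower. That background covers genes of every level tested, low ones included, and no called share was taken among well-expressed genes. The groups did not overlap in 8 members higher and 22 lower of 34, against 42.6% and 48.4% of genes with a mean of at least 10 CPM.

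SREBF1 showed the largest decrease, at 43.8 and 41.9 CPM on day 12 and 135 and 144 CPM on day 6 (log2 change -1.70 ± 0.08, edgeR adjusted p = 4.5e-11). ACLY was at 629 and 610 CPM on day 12 against 1429 and 1425 CPM on day 6, a log2 change of -1.20 ± 0.07. NPC2 was at 6.77 and 6.91 CPM against 16.5 and 16.5 CPM, a log2 change of -1.27 ± 0.13. INSIG1 was at 160 and 154 CPM against 235 and 245 CPM (log2 change -0.62 ± 0.08), and STARD4 at 92.4 and 92.6 CPM against 136 and 139 CPM (log2 change -0.57 ± 0.08). INSIG2 went the other way from INSIG1, at 40.7 and 38.2 CPM on day 12 and 20.5 and 22.1 CPM on day 6 (log2 change 0.89 ± 0.10). MVD was at 260 and 280 CPM against 157 and 167 CPM (log2 change 0.74 ± 0.09), and HMGCS1 at 1465 and 1316 CPM against 960 and 1005 CPM (log2 change 0.50 ± 0.07). Each of these genes had an edgeR adjusted p of at most 2.6e-05 and groups that did not overlap. FASN (0.48), SCAP (0.48), SQLE (0.27) and SREBF2 (0.23) rose by smaller log2 changes, and SCD fell by 0.26 on the log2 scale. SREBF2 was at 981 and 983 CPM on day 12 against 827 and 852 CPM on day 6, SCAP at 113 and 113 CPM against 79.0 and 83.3 CPM, and SCD at 1377 and 1337 CPM against 1622 and 1619 CPM.

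The pathways around the members changed further over this interval. Of 18 fatty acid oxidation genes 14 fell and 1 rose, with a median log2 change of -0.89. ACAA2, a thiolase of mitochondrial oxidation, was at 7.62 and 8.92 CPM on day 12 and 62.2 and 62.9 CPM on day 6. Of 13 sterol export and turnover genes 6 rose and 3 fell. CYP46A1, the neuronal enzyme that turns cholesterol into a form that can leave the brain, was at 14.3 and 15.5 CPM on day 12 and 0.516 and 1.116 CPM on day 6 (log2 change 4.18 ± 0.23, edgeR adjusted p = 3.4e-10), and ABCA1, a cholesterol exporter, was at 42.9 and 47.7 CPM against 172 and 169 CPM. SCD5, a desaturase related to SCD, was at 237 and 226 CPM against 12.7 and 9.06 CPM (log2 change 4.41 ± 0.16). All 12 proliferation genes fell over the same interval, with summed levels of 71.8 and 70.9 CPM against 749 and 648 CPM, and their part in the changes was not tested.

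The doxycycline set has an interval of similar length, day 11 against day 5, in which doxycycline was kept and no library is shared. The intervals did not start alike. NEUROG2 was at 1564 CPM in the doxycycline day-5 library and 7708 and 7544 CPM in the control day-6 libraries. MKI67, a proliferation gene, was at 11.9 CPM against 110 and 88.1 CPM, with each set scaled on its own. Over the 34 members, 22 had log2 changes below 0 in both sets, 1 (INSIG2) above 0 in both, 10 below 0 in the doxycycline set and above 0 in the FGF2 set, and 1 (HSD17B7) the reverse. Taken singly, 32 of the 34 members were below 0 in the doxycycline set and 23 in the FGF2 set. With so many below 0 in each, a count of 22 in both does not show that the sets agree. Across members the changes correlated with Pearson's r = 0.627 and Spearman's rho = 0.532, a description over genes that share libraries within each set. No such count or correlation was taken over all genes. STARD4 (-1.45 in the doxycycline set and -0.57 in the FGF2 set) and SREBF1 (-1.33 and -1.70) were low in both, as was ACLY (-0.85 and -1.20). HMGCS1 (-0.39 and 0.50) and FASN (-0.70 and 0.48) differed in sign.

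**Figure D5:**
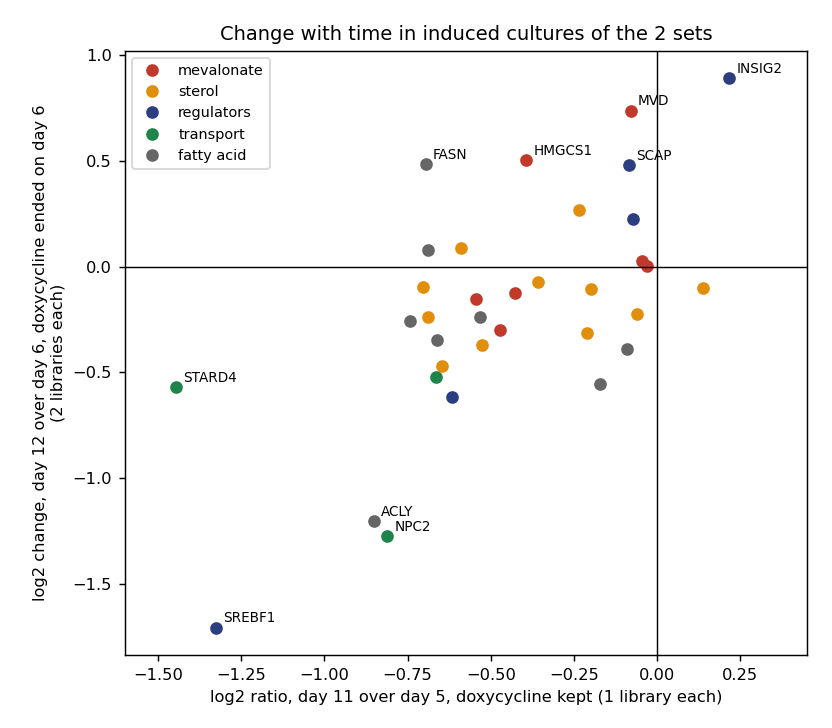
Log2 change with time of the 34 members in induced cultures, day 11 over day 5 with doxycycline kept (horizontal axis, 1 library each) and day 12 over day 6 with doxycycline ended on day 6 (vertical axis, 2 control libraries each), coloured by role. SREBF1, NPC2 and ACLY lie lowest on the vertical axis, STARD4 lies farthest left, and INSIG2 alone lies in the upper right.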

How the data were processed

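Raw read counts per gene were deposited by the authors for each set, which per the submitters' processing notes came from Subread and featureCounts 1.5.0 with GRCh38. RNA was prepared with an unstranded kit and read in single 50-base reads, per the labels' protocols. For the doxycycline set, linear signal values normalized with limma voom, as their name says, were deposited by the authors too; they served as an alternative after each library was scaled to its own total. Log2 fold changes and p-values from DESeq2 and limma were deposited by the authors for early and late FGF2, with models and versions not given in the sources used here. Another 16 per-sample columns in those tables were not used. 

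The 8 FGF2 libraries were fitted with edgeR 4.0.16 (R 4.3.3): filterByExpr by group (20142 genes), TMM, 1 mean per group, quasi-likelihood tests, two-sided, Benjamini-Hochberg adjustment over all genes, calls at an adjusted p under 0.05. SE was taken as the log2 change over the square root of F. The 5 doxycycline libraries got no test; log2 ratios used CPM + 1, and genes that reached 10 CPM in one or both libraries were counted at 2-fold and 4-fold. On simulated counts for late FGF2 (19753 genes) the fit called 100% of 2-fold and 86% of 1.5-fold changes, and 7.46% of its calls were unchanged genes. The simulated libraries all had the same spread for a gene, without the wider spread of the FGF2 day-6 pair. Only 1.5-fold and 2-fold changes were planted, so these figures do not cover smaller ones, such as the members' median log2 change of 0.22.

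Gene names came from the deposited tables, and coordinates, exon lengths and overlaps from GENCODE 29 (GRCh38). Promoters came from RefSeq (GRCh38.p14). The members, gene lists and motifs were chosen with earlier results of these data known. Values in every library are given for the 8 called members of smallest p or, without a test, of largest ratio in each comparison, and for INSIG1, SREBF1, SREBF2, SCAP, HMGCS1 and SCD; other lists are shown by up to 4 called genes of smallest p. Other members are given by range, or were named after their values were seen, as were SLC1A2, NES, VIM and the marker sums without NEFM and NEFL or SLC1A2. Alternatives were other scalings (DESeq2 1.42.0 size factors, library totals), DESeq2 and limma 3.58.1 voom tests, other filters and pseudocounts, the replicate block, and each replicate left out. Leaving out FGF2 day-6 libraries together, fitting each day alone and taking day 0 as the reference were chosen after seeing the data.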

Additional observations from a re-analysis of the deposited data

Results flagged for a closer look

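The FGF2 effect on STARD4 differed between the late and the early window by a log2 difference of 0.659 in the edgeR test of that difference, the only one of the 34 members for which that difference was called. Its libraries stood at 137 and 145 CPM with FGF2 and 92.4 and 92.6 CPM in controls on day 12, and at 143 and 123 CPM with FGF2 and 136 and 139 CPM in controls on day 6.

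Early and late FGF2 log2 changes had opposite signs in 13 of the 34 members. In all of these but SCAP and ACLY the libraries of the early window overlapped. Libraries of the late window did not overlap in any of them. With doxycycline, FADS1 was the member whose log2 ratio had opposite signs on the 2 days. FADS1 had a log2 ratio with doxycycline of -0.17 on day 11, against 0.50 on day 5, from 1 library per group, and the difference was not tested. The SCAP log2 change was -0.06 with late FGF2 and 0.0631 with early FGF2, without overlap of the libraries in either window; the edgeR test of the difference gave an adjusted p of 0.887. The ACLY log2 change was 0.22 with late FGF2 and -0.054 with early FGF2, again without overlap; the edgeR test of the difference gave an adjusted p of 0.465.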

How the results depend on the processing

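The count of members called higher with late FGF2 (3) moved most. It was 5 with the DESeq2 Wald test, 7 with limma voom, 8 with no filter on low counts, 8 with the replicate number as a block, 22 with day-12 libraries only, 22 leaving out both FGF2 day-6 libraries and 22 when the block was added to that. Leaving out 1 library at a time gave 1 to 22: 1 without any one day-12 library, 2 without either control day-6 library and 22 without either FGF2 day-6 library. All of these calls fall among the same 22 members. For early FGF2 the range was 0 to 8 higher and 0 to 1 lower, for late minus early 0 to 8, where no filter on low counts gave 2, and for day 12 against day 6 it was 5 to 7 higher and 12 to 19 lower.

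Over all alternatives the sign turned in 0 members for late FGF2, 21 for early FGF2, 9 for late minus early and 3 for day 12 against day 6. Their log2 changes were at most 0.13 in size with all libraries, and 0 of them were called with all libraries or where the sign had turned. For example, early INSIG1 was 0.0024 with no filter, and leaving out 1 library moved early INSIG1 over -0.046 to 0.045, early SREBF2 over -0.0025 to 0.048, early SCD over -0.17 to 0.0082 and late minus early SREBF2 over -0.016 to 0.035. Among ratios without a test, library totals gave 8 members at least 2-fold higher with doxycycline on day 11 in place of 15, and a filter of 1 CPM or the deposited voom values gave 2 members lower in place of 1 on day 5 without doxycycline against day 0. The cause of these moves was not tested, except that a filter of 1 CPM admits CYP51A1.

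Same-numbered libraries deviated together with correlations of -0.00128 to 0.327 over 6 pairs of groups, above 0.1 in 3 of them, among them FGF2 and control on day 6 (0.327) and on day 12 (0.129). The titles repeat the numbers in all 4 groups without saying what they mark, so whether they pair the samples was not settled. The tests were made without the block, and with it 8 members were called higher with late FGF2 in place of 3. With 2 libraries per group, and 1 per group in the doxycycline set, small changes rest on few samples. Counts of a few members overlapped by other genes are uncertain whatever the setting.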
